A study of Mus musculus with 2 samples.

Results

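Krt17, Krt6a, Krt6b, Krt16 and Krt79, 5 keratin genes known from the upper hair follicle and from stressed or wounded epidermis, were taken by gene symbol from the gene list of the deposited matrices. They are 5 of 27998 genes, each is present in both matrices, and all 5 passed the filter on low counts that left 12610 genes to test, Krt6b only through differentiated and terminally differentiated interfollicular epidermis. The data are droplet-based single-cell transcriptomes of epidermis from 2 male Chrm3 KO mice (strain C57BL/6J, postnatal day 0), 1 library each, called KO mouse 1 and KO mouse 2 here. Chrm3 encodes the M3 muscarinic acetylcholine receptor, and both mice carry the same knockout. Both groups of cells in every comparison below therefore lack the receptor, and wild-type libraries were not analysed here, so no value below measures an effect of the knockout.

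Keratins build the intermediate filaments of epithelial cells, and each filament pairs a type I with a type II keratin. Krt16 and Krt17 are type I, and Krt6a, Krt6b and Krt79 are type II. In resting skin Krt17 is found in the epithelium of the hair follicle, Krt6a in the innermost outer root sheath and the companion layer, and Krt79 in the upper follicle and the opening of the hair canal. Krt6a, Krt6b, Krt16 and Krt17 are induced in the interfollicular epidermis (IFE), the epidermis between follicles, after wounding and in inflamed skin, where Krt6 and Krt16 pair.

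The genes lie in both keratin clusters of the mouse genome (GRCm38, GENCODE M21), all on the minus strand. Krt17 (ENSMUSG00000035557) spans chr11:100256217-100261029 and Krt16 (ENSMUSG00000053797) spans chr11:100246091-100248902, each with 8 exons. Krt6a (ENSMUSG00000058354) spans chr15:101689910-101694307, Krt6b (ENSMUSG00000023041) spans chr15:101676023-101680287 and Krt79 (ENSMUSG00000061397) spans chr15:101929332-101940324, each with 9 exons. Krt6a and Krt6b are near copies, so the part of the transcript that a read comes from decides whether it can be assigned. Their coding sequences were 97.6% identical, with 37 mismatches and a longest shared run of 280 bases, whereas their 3′ UTRs were 71.3% identical. The last 120 coding bases of both are shown because they lead into the end of the transcript that 3′ libraries read, and capitals mark the bases that differ or are inserted between them.
Krt6a: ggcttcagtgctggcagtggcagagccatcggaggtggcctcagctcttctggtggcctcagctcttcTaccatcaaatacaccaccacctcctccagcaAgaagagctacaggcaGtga
Krt6b: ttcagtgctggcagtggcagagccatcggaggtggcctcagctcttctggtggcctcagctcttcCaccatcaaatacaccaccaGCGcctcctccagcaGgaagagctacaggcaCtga
Of the 90-base words of the transcripts, 37.1% in Krt6a, 33.6% in Krt6b and 26.2% in Krt16 also occurred in another gene, against 0% in Krt17 and Krt79. Within the last 500 bases the share was 0% for Krt6a, Krt6b, Krt17 and Krt79 and 4.38% for Krt16, which shared them with Krt14 or a predicted gene. Reads from further upstream in Krt6a and Krt6b remain uncertain in their assignment.

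The deposited matrix of KO mouse 1 holds 10816 cell barcodes with 109756784 UMIs (unique molecular identifiers, 1 per captured transcript), and that of KO mouse 2 holds 15867 barcodes with 166441732 UMIs. The filter (900 to 7700 genes detected, less than 10% of UMIs mitochondrial) left 7607 and 11881 cells with medians of 10480 and 10577 UMIs. The libraries share 127 barcodes, of which 34 are among the cells kept. Chrm3 itself was at 13 UMIs in KO mouse 1 (0.137 CPM, exact 95% Poisson interval 0.0728 to 0.234) and 19 UMIs in KO mouse 2 (0.128 CPM, 0.0769 to 0.199), above the limit of 0.0316 and 0.0202 CPM that a count of 0 allows. Whether these UMIs come from the part of the gene that the knockout removes was not tested.

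Cells were clustered and the clusters named without these 5 keratins, and every class name below stands for cells like that type, judged from marker genes. Levels are given as CPM, the UMIs of a gene summed over the cells of a class in 1 mouse and scaled to the summed UMIs of those cells. The upper follicle-like class was 1 cluster of 653 cells, 327 in KO mouse 1 and 326 in KO mouse 2, led by Krt75, Hspb1, Bbox1, Gsdma and Pinlyp. It took its name from the upper follicle marker list, and all 22 upper follicle markers were detected in each mouse. Their summed level was 3136 and 2459 CPM there, against 3012 and 2228 CPM in differentiated IFE, 1960 and 1547 CPM in sebaceous cells and 596.4 and 543.4 CPM in basal IFE. By summed level the upper follicle list thus did not separate this class from differentiated IFE. The mean log2 enrichment of its markers over all other cells was 1.26 in this class and 0.541 in differentiated IFE. The companion layer markers, at 226.1 and 112.3 CPM in this class, were lower in differentiated IFE at 45.13 and 33.48 CPM. A further 3842 cells in 3 clusters, led by Ccl27a, Pltp and Tagln, met no list and stayed unnamed.

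The 5 keratins fell into different parts of the epidermis. The upper follicle-like class was 4.3% and 2.74% of the cells kept in KO mouse 1 and 2, and it held 70.4% of the Krt79 UMIs, 51.9% of the Krt6a UMIs and 24.4% of the Krt17 UMIs. Differentiated IFE held 80.2% of the Krt6b UMIs and 53.3% of the Krt16 UMIs, and transitional IFE, between the basal and the differentiated state, held a further 28.1% of Krt16. Differentiated IFE was 2.248% and 1.7% of the cells kept. Median depth was 14890 and 16280 UMIs in upper follicle-like and 24220 and 22500 in differentiated IFE cells, against 10480 and 10577 in all cells kept. Their shares of cells thus understate their shares of all UMIs. Unnamed clusters held 21.2% of Krt17 and the hair follicle class 17.3%. These lie near their shares of the cells, 18.29% and 20.63% for unnamed clusters and 19.8% and 19.25% for hair follicle. In 3′ UMI data the levels of different genes are not scaled for length or capture, so classes are ordered here only within a gene. Where UMIs of different genes are set side by side below, they count captured UMIs and do not rank the genes by transcript number.

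**Figure D1:**
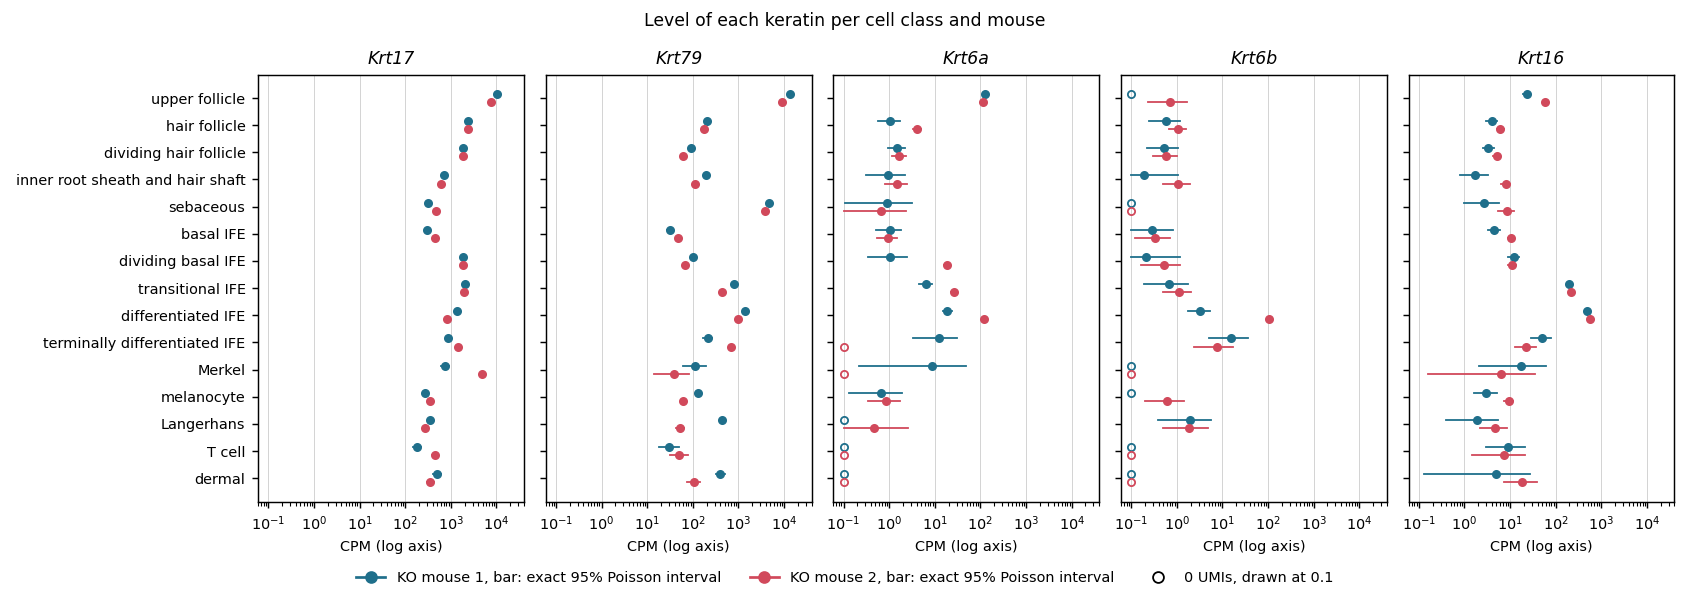
Level of each keratin (CPM, log axis) in 15 cell classes, with 1 point per KO mouse and exact 95% Poisson intervals that cover counting error only; open points are classes with 0 UMIs. Krt17 and Krt79 were highest in the upper follicle-like class in both mice, Krt16 in differentiated IFE in both mice, and the points for Krt6a and Krt6b in differentiated IFE lie far apart between the mice.

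Krt17, the type I keratin of the follicle epithelium, was at 10160 CPM in the upper follicle-like class of KO mouse 1 and 7451 CPM in that of KO mouse 2 (8805 ± 1916, mean ± SD, n = 2 mice). In the hair follicle class it was at 2399 and 2382 CPM, in dividing hair follicle cells at 1842 and 1814 CPM and in inner root sheath and hair shaft cells at 717.9 and 612.9 CPM. These 4 follicle classes did not overlap each other in any pair of mice. The order of the named classes ran from upper follicle-like down to inner root sheath and hair shaft. This order does not place all inner root sheath-like cells, since the upper follicle-like class held a sub-cluster, described below, led by genes of that list. The unnamed clusters led by Pltp (2818 and 2838 CPM), Ccl27a (2506 and 2410 CPM) and Tagln (2077 and 1783 CPM) had levels near those of the hair follicle class. In the IFE the level was 301.5 and 442.3 CPM in basal cells, 2091 and 1902 CPM in transitional cells, 1386 and 836.5 CPM in differentiated cells and 880.8 and 1438 CPM in terminally differentiated cells, and the differentiated and terminally differentiated classes overlapped. Merkel-like cells, 36 in all, had 746.2 and 4744 CPM and overlapped most keratinocyte classes. In KO mouse 2, 1 Merkel-like cell held 457 of the 746 Krt17 UMIs of the class.

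Classes that should not make keratin set the background of free RNA in droplets. Krt17 was at 269.2 and 354.3 CPM in melanocyte-like cells, 342.9 and 278 CPM in Langerhans-like cells and 184.3 and 447.6 CPM in T cell-like cells. The level in basal IFE lay within the spread of these classes, and by level alone it cannot be told from them. Called doublets were 9.79%, 9.17% and 3.33% of these classes in the order given. Within the melanocyte-like class, Krt17 was at 93.49 and 138.8 CPM in a cluster of 896 cells with 8 called doublets. In its other cluster, 268 cells with 106 called doublets, Krt17 was at 585.1 and 734.8 CPM. The part of doublets in these levels was not tested. After each cell was thinned to 3000 UMIs, Krt17 was detected in 97.8% and 97.5% of upper follicle-like cells, 97.6% and 97.7% of hair follicle cells and 97% and 96.6% of dividing hair follicle cells. Detection was 78.1% and 82.3% in dividing basal IFE. In basal IFE it was 38.6% (exact 95% binomial interval 35.7 to 41.6) and 47.1% (44.8 to 49.4), against 24.1% (20.1 to 28.4) and 31.8% (28.4 to 35.4) in melanocyte-like cells. The share of basal IFE cells with a Krt17 UMI was thus above that of melanocyte-like cells in both mice, beyond counting error. Median depths before thinning were 9350 and 9460 UMIs in basal IFE, 16600 and 16300 in dividing basal IFE and 8980 and 9760 in melanocyte-like cells.

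Krt79, a type II keratin that lines the hair canal, was at 13170 and 8892 CPM in the upper follicle-like class (11030 ± 3026, n = 2 mice). Sebaceous cells followed at 4710 and 3859 CPM (4285 ± 601.3), and differentiated IFE at 1380 and 983.5 CPM (1182 ± 280.1). These 3 classes were separated from each other and from the next, transitional IFE at 798.2 and 428.9 CPM, in both mice. Below transitional IFE each class overlapped its neighbour down to the dividing cells of unresolved lineage. Langerhans-like cells had Krt79 at 437.8 and 52.54 CPM and dermal cells at 402.1 and 104 CPM. In KO mouse 1 these levels were above those of the hair follicle, inner root sheath and hair shaft, and terminally differentiated IFE classes. In KO mouse 2 they were below. By level alone those 3 classes cannot be told from this background in KO mouse 1. Within the hair follicle class (204.9 and 175.5 CPM) the cluster led by Ncam1 had 617.6 and 523.2 CPM, and the clusters led by Sfrp1 and Shh had 50.61 to 84.89 CPM.

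Krt79 was detected after thinning in 100% of sebaceous cells of both mice, 98 and 147 cells, and in 90.4% and 86% of upper follicle-like cells. In differentiated IFE it was detected in 25.3% and 27.6% of cells and in the hair follicle class in 24.1% and 26.2%, against 9.2% and 16.6% in melanocyte-like cells. Basal IFE, at 8.42% and 13.9%, was below the melanocyte-like cells in each mouse, so no Krt79 expression is read there. Sebaceous cells had 1460 and 810 Krt79 UMIs per 100 Krt17 UMIs, whereas upper follicle-like cells had 130 and 119 and hair follicle cells 8.54 and 7.37. The sebaceous class thus had high Krt79 with Krt17 at 323.4 and 476.2 CPM, near the levels of the melanocyte-like, Langerhans-like and T cell-like classes.

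Krt6a, the type II partner found in the companion layer, was at 126.1 and 111.6 CPM in the upper follicle-like class (118.8 ± 10.28, n = 2 mice). Differentiated IFE had 18.98 CPM in KO mouse 1 and 122.3 CPM in KO mouse 2, so its rank beside the upper follicle-like class differed between the mice. Transitional IFE had 6.335 and 25.93 CPM and dividing basal IFE 1.034 and 18.8 CPM. Hair follicle (1.021 and 4.067 CPM), basal IFE (1.041 and 0.9265 CPM) and melanocyte-like cells (0.6482 and 0.8522 CPM) were low in both mice. Thinned upper follicle-like cells had a Krt6a UMI in 12.3% of cases in KO mouse 1 (8.97 to 16.4, exact 95% binomial interval) and in 8.7% in KO mouse 2 (5.86 to 12.3), against 0.236% and 0.559% of melanocyte-like cells. Those classes had medians of 15100 and 16500 UMIs and of 8980 and 9760 UMIs before thinning.

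Few cells carried the Krt6a signal. KO mouse 1 had 1053 Krt6a UMIs in 176 cells and KO mouse 2 had 2055 in 220 cells, and the 10 highest cells held 43.9% and 60.4% of them. In KO mouse 1 the 3 highest cells were upper follicle-like, with 104, 72 and 55 Krt6a UMIs beside 532, 1079 and 538 Krt17 UMIs, 0 Krt6b UMIs and at most 1 Krt16 UMI each. In KO mouse 2 the highest was a differentiated IFE cell with 302 Krt6a, 249 Krt6b, 625 Krt16 and 30 Krt17 UMIs among 16402 UMIs, and the next was a dividing basal IFE cell with 170 Krt6a UMIs. These were 302 of the 665 Krt6a UMIs of differentiated IFE and 170 of the 183 of dividing basal IFE in KO mouse 2, so few cells held the high Krt6a of both classes there. Of upper follicle-like cells with at least 3 Krt6a UMIs, 55 in KO mouse 1 and 28 in KO mouse 2, all had at least 3 Krt17 UMIs, 48 and 22 had as many of Krt79, 8 and 5 of Krt16, and 0 of Krt6b. Over the whole class the counts were 320 of 327 and 313 of 326 cells for Krt17, 294 and 277 for Krt79 and 15 and 21 for Krt16. The Krt17 and Krt79 counts beside Krt6a thus lie near the class share.

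Krt6b, the near copy of Krt6a that is also induced by wounding, was the scarcest of the 5 by UMIs, at 65 in KO mouse 1 and 679 in KO mouse 2. Differentiated IFE had 3.163 and 107.1 CPM, terminally differentiated IFE 15.35 and 7.474 CPM and Langerhans-like cells 1.898 and 1.86 CPM. The upper follicle-like class had 0 and 0.7116 CPM, where a count of 0 allows up to 0.4564 CPM. The basal, transitional and dividing IFE classes and the other follicle classes had between 0.1911 and 1.106 CPM, and the unnamed cluster led by Ccl27a had 1.784 CPM in KO mouse 1. Sebaceous, Merkel-like, dermal and T cell-like cells had 0 UMIs, which allows up to 0.9778 CPM in the deepest and 26.03 CPM in the shallowest of these sums. Of the 582 Krt6b UMIs of differentiated IFE in KO mouse 2, a pair of cells held 264 and 249. These were 38.9% and 36.7% of that mouse's Krt6b. The difference between the mice rested mainly, but not wholly, on this pair of cells. Both were rich in Krt16, at 481 and 625 UMIs. Of differentiated IFE cells with at least 3 Krt6b UMIs, 3 and 10, 3 and 9 also had at least 3 Krt16 UMIs and 1 and 4 as many of Krt6a. Over the whole class 60 of 171 and 70 of 202 cells had at least 3 Krt16 UMIs, and 4 and 8 as many of Krt6a. After thinning Krt6b was detected in 0.588% and 3.02% of differentiated IFE cells and in 0% and 0.279% of melanocyte-like cells.

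Krt16, the type I keratin that pairs with Krt6, was at 497.9 and 563 CPM in differentiated IFE (530.4 ± 46.09, n = 2 mice) and 194.5 and 211.7 CPM in transitional IFE (203.1 ± 12.17). The upper follicle-like class had 22.97 and 57.92 CPM and overlapped terminally differentiated IFE at 49.11 and 22.42 CPM. Basal IFE (4.446 and 10.63 CPM), hair follicle (3.937 and 6.054 CPM) and melanocyte-like cells (3.025 and 9.496 CPM) overlapped at the foot of the order. The first and second classes were separated from each other and from the rest in both mice. Krt16 was detected after thinning in 29.4% and 24.6% of differentiated IFE cells and 19% and 20.4% of transitional cells, against 1.18% and 3.49% of melanocyte-like cells. Differentiated IFE cells had medians of 24300 and 23400 UMIs and transitional cells of 13200 and 13000 UMIs before thinning. A minority of cells held most of the Krt16 UMIs of differentiated IFE. Without thinning, 83 of 171 and 109 of 202 cells of the class had a Krt16 UMI, and the median cell had 0 and 25.1 CPM. The 10 highest of its 171 and 202 cells held 61.1% and 72.2% of its Krt16 UMIs. In KO mouse 2 the pair of cells rich in Krt6b had 481 and 625 of the 3061 Krt16 UMIs of the class.

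**Figure D2:**
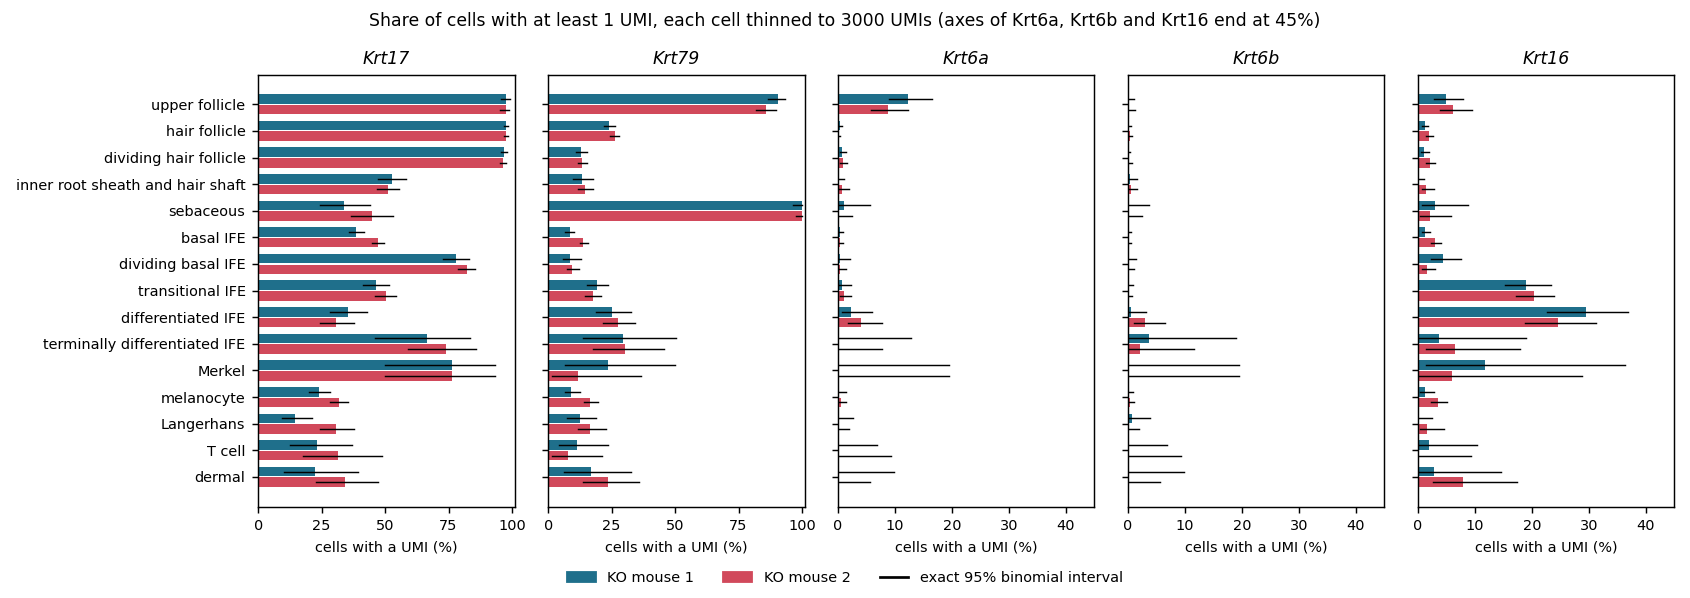
Share of cells (%) with at least 1 UMI of each keratin after thinning to 3000 UMIs, per class and KO mouse, with exact 95% binomial intervals that cover counting error only. Krt17 was detected in over 96% of cells in the upper follicle-like, hair follicle and dividing hair follicle classes, Krt79 in 100% of sebaceous cells, and Krt6a in 12.3% and 8.7% of upper follicle-like cells.

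The upper follicle-like class was divided further by clustering without the 5 keratins, and its 8 sub-clusters differed in the combination of keratins they carried. The sub-cluster led by Cst6, Sprr1a and Teddm3, 106 cells, had Krt79 at 25110 and 20570 CPM, Krt17 at 15150 and 12580 CPM and Krt6a at 371 and 272.4 CPM. The sub-cluster led by Wfdc18, Fhl2 and Sfrp1, 55 cells, had Krt17 at 17410 and 15190 CPM and Krt6a at 797.4 and 929.9 CPM. Its Krt79, at 1586 and 621 CPM, was the lowest of the 8 sub-clusters in each mouse, and its Krt6a the highest. Of its leading genes, Apoe is on the hair follicle marker list. Sfrp1, Tbx1 and S100a6 are also among the leading genes of the hair follicle cluster led by Sfrp1. The sub-cluster led by Krt25, Krt71 and Krt75, 46 cells, had Krt17 at 15760 and 10890 CPM, Krt79 at 12400 and 11870 CPM and Krt6a at 90.21 and 332.8 CPM. Of its leading genes, Krt25, Krt71, Tchh, Krt27 and Krt73 are on the inner root sheath and hair shaft marker list, and Krt75 is on the companion layer list.

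Other sub-clusters were high in Krt79 and low in Krt6a. In that led by Gjb6, 99 cells, Krt79 was at 16330 and 13140 CPM and Krt6a at 2.56 and 7.032 CPM. In that led by Krt1 and Flg, 34 cells, Krt79 was at 15720 and 11000 CPM, Krt6a at 0 in both mice and Krt16 at 59.38 and 530.6 CPM, the highest Krt16 of the 8 in KO mouse 2. Krt17 was lowest there in each mouse, at 3049 and 4757 CPM, beside the dividing sub-cluster led by Cenpf at 4848 and 4981 CPM. The Cenpf sub-cluster held all 5 cells of the class that were called doublets. The 5 Krt6b UMIs of the class lay in the Cenpf sub-cluster of KO mouse 2. Clustering used genes that vary with these keratins, so these levels are a description and have no test.

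**Figure D3:**
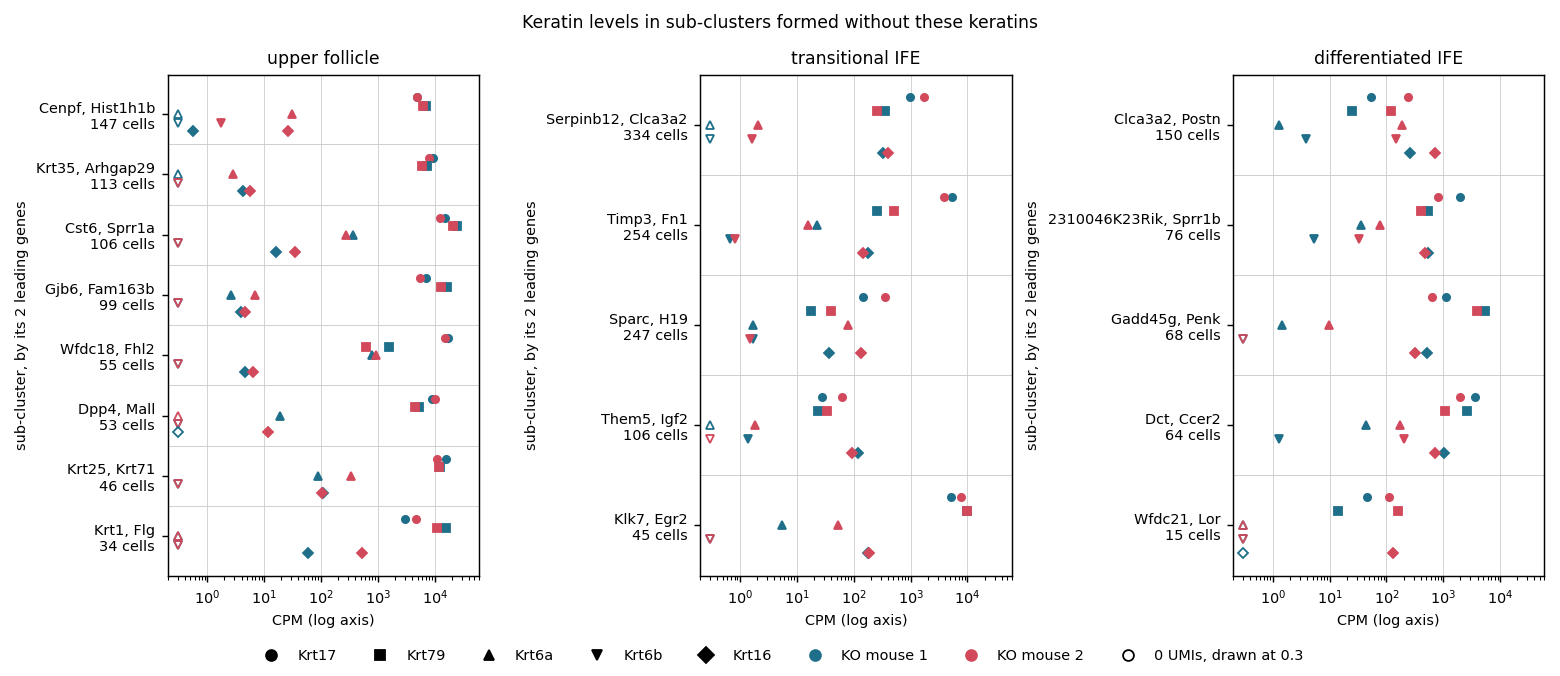
Level of the 5 keratins (CPM, log axis) in sub-clusters of the upper follicle-like, transitional IFE and differentiated IFE classes, 1 colour per KO mouse and 1 symbol per gene; open symbols are 0 UMIs. In the upper follicle-like class Krt6a was highest in the sub-cluster led by Wfdc18 (797.4 and 929.9 CPM), where Krt79 was lowest (1586 and 621 CPM), and within transitional IFE Krt17 was high in the sub-clusters led by Timp3 and Klk7.

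Krt17 in transitional and differentiated IFE came mostly from a minority of cells. The median transitional cell had Krt17 at 117 and 162 CPM and the 90th percentile was 5840 and 5850 CPM, whereas the median upper follicle-like cell had 8350 and 6250 CPM. In differentiated IFE the 10 highest of 171 and 202 cells held 76.7% and 62.7% of the Krt17 UMIs. Within transitional IFE, Krt17 was at 5427 and 3809 CPM in the sub-cluster led by Timp3 (254 cells) and 5232 and 7701 CPM in that led by Klk7 (45 cells), and at 27.49 and 61.39 CPM in that led by Them5. The Timp3 sub-cluster carried Fst, Lhx2, Pdgfa and Dcn among its leading genes and held the 14 called doublets of the class. The Klk7 sub-cluster also carried Sostdc1, Defb1, Apoe, Runx1 and Krt77 and had Krt79 at 9709 and 9701 CPM. Lhx2, Apoe and Runx1 are on the hair follicle marker list, and Klk7, Fst, Sostdc1 and Defb1 are on the upper follicle list. Dcn is on the basal IFE list, Krt77 on the transitional and differentiated IFE lists and Pdgfa on none. The part of these cells in the Krt17 level of transitional IFE was not tested.

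Differentiated IFE showed the same spread between sub-clusters. That led by Clca3a2 and Postn, 150 cells, had Krt16 at 260.2 and 701.7 CPM with Krt17 at 52.43 and 234.8 CPM and Krt79 at 24.3 and 118.8 CPM. That led by Gadd45g and Penk, 68 cells, had Krt79 at 5359 and 3959 CPM. Its leading genes Gadd45g, Arl4a, Alox12e and Sostdc1 also led the upper follicle-like sub-cluster with Gjb6. Sostdc1 is on the upper follicle list and its leading gene Krt15 on the basal IFE list. The part of these cells in the Krt79 level of differentiated IFE was not tested. That led by Dct, a pigment cell gene, 64 cells, also carried Lhx2, Pdgfa, Dcn, Ptn and Hist1h1b among its leading genes, and it held the 2 called doublets of the class. It had Krt17 at 3597 and 1998 CPM, Krt79 at 2656 and 1092 CPM and Krt16 at 1011 and 701 CPM. The 11 melanocyte markers summed to 33.53 and 127.3 CPM in differentiated IFE, with 10 and 11 of them detected, against 12.11 and 21.86 CPM in basal IFE, and the part of these markers and doublets in the levels was not tested. Krt16 thus extended across the 4 larger sub-clusters in both mice, while Krt79 was above 1000 CPM in those led by Gadd45g and Dct and at most 547.4 CPM in the other 3.

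Differences between classes were tested with edgeR's quasi-likelihood test on UMI counts summed per mouse and class (20 sums, 10 keratinocyte classes), with Benjamini-Hochberg adjustment over all 12610 genes. Both mice gave a sum to each class, and the main fit had no term for the animal. The p-values rest on the differences between the 2 mice within classes, pooled over the 10 classes. The 20 sums were treated as independent, although they come from only 2 animals. The first comparison set the mean of the upper follicle-like and hair follicle classes against basal IFE, none of them named dividing. The upper follicle-like sums still include its dividing sub-cluster led by Cenpf, 147 cells, here and in the comparisons below. Krt17, Krt79 and Krt6a were higher in the follicle, 3 of the 5, where 25.3% of all genes tested were higher, 22.8% lower and 48% called in either direction. The log2 fold change was 3.44 ± 0.24 for Krt17 (SE, adjusted p = 2.0e-09), 4.99 ± 0.45 for Krt79 (adjusted p = 6.0e-08) and 4.03 ± 1.01 for Krt6a (adjusted p = 0.0030). Krt16 was 0.66 ± 0.37 (adjusted p = 0.16) and Krt6b 0.66 ± 2.07 (adjusted p = 0.82). With the animal as a block, Krt16 passed at an adjusted p of 0.048. Krt6a rested on the upper follicle-like class, since the hair follicle class alone differed from basal IFE by 1.32 ± 1.30 (adjusted p = 0.45), and was 3.22 without KO mouse 2. Its call in follicle against basal IFE was lost with a mitochondrial limit of 5% (0.93, adjusted p = 0.87) and at a clustering resolution of 1.2 (2.40, adjusted p = 0.082). In that narrower comparison Krt17 (2.49 ± 0.24) and Krt79 (2.06 ± 0.42) were higher, where 21.8% of genes were higher, 20.7% lower and 42.5% called.

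Between follicle classes, 4 of the 5 keratins were higher in the upper follicle-like class, with its dividing sub-cluster, than in the hair follicle class. There 24% of genes were higher and 46% were called. The log2 fold change was 5.87 ± 0.48 for Krt79 (adjusted p = 2.6e-08), 5.42 ± 0.77 for Krt6a (adjusted p = 1.7e-05), 2.99 ± 0.41 for Krt16 (adjusted p = 1.2e-05) and 1.90 ± 0.23 for Krt17 (adjusted p = 3.6e-06). Krt6b did not pass, at -1.20 ± 2.25 (adjusted p = 0.69). Krt16 passed at a low level, 22.97 and 57.92 CPM against 3.937 and 6.054 CPM, and 10 cells held 68.9% and 78.6% of its UMIs in the upper follicle-like class. Krt6a was 6.87 without KO mouse 2 and 4.74 without KO mouse 1.

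**Figure D4:**
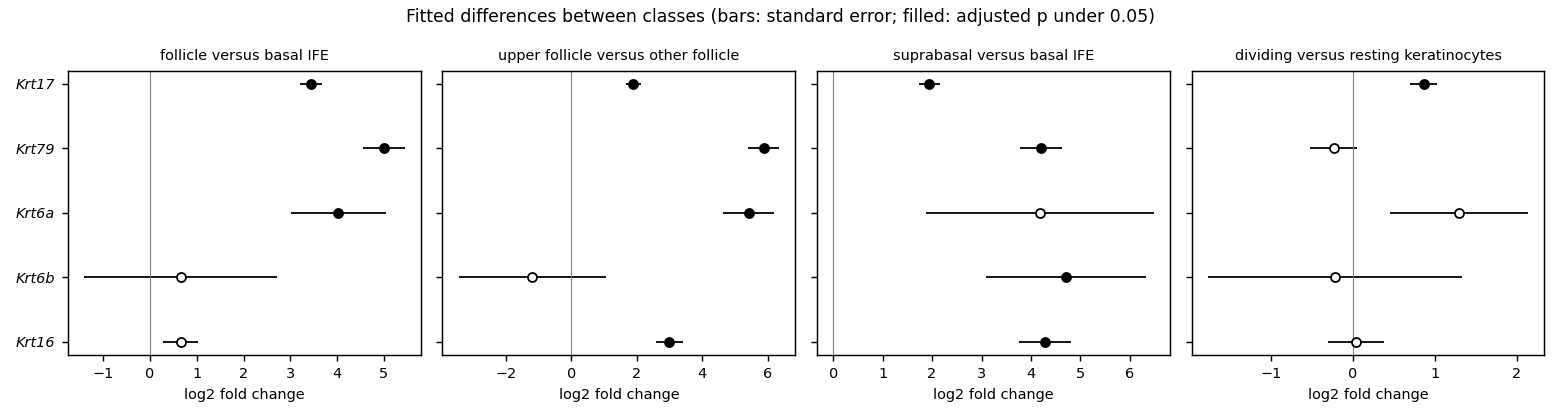
Log2 fold change of each keratin in 4 comparisons between keratinocyte classes, with the standard error as bars; filled points have an edgeR adjusted p under 0.05. Krt79 and Krt17 were higher in the follicle, upper follicle and suprabasal comparisons, and Krt17 in the dividing comparison. Krt6a was higher in the follicle and upper follicle comparisons, and Krt16 in the upper follicle and suprabasal comparisons. The suprabasal point of Krt6b is a description, since the gene passed the filter through those classes.

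The suprabasal IFE (the mean of the transitional, differentiated and terminally differentiated classes) was set against basal IFE to ask which keratins differ along differentiation. Krt16, Krt79 and Krt17 were higher, where 21.5% of genes were higher and 43.1% were called. Krt16 was higher by 4.28 ± 0.53 on the log2 scale (adjusted p = 3.9e-06) and Krt79 by 4.20 ± 0.43 (adjusted p = 3.9e-07). These sums include the sub-clusters led by Timp3, Klk7, Gadd45g and Dct, which carry follicle list genes, and their part in the differences was not tested. Krt16 was 5.23 without KO mouse 2 and 3.68 without KO mouse 1. Krt6b passed the filter on low counts only through the differentiated and terminally differentiated sums, so its values within the IFE are a description with no test, at 4.70 here and 3.43 without KO mouse 2, which holds the pair of cells named above. Krt17 was higher by 1.95 ± 0.21 (adjusted p = 8.8e-07), and Krt6a, at 4.18 ± 2.31 (adjusted p = 0.16), did not pass and was 1.83 without KO mouse 1.

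The steps along the IFE differed between the genes. From basal to transitional IFE, Krt16, Krt79, Krt6a and Krt17 were higher, by 4.74, 4.02, 4.20 and 2.51 on the log2 scale, where 17.8% of genes were higher, 16.1% lower and 33.9% called. Without KO mouse 2, Krt6a was 2.61 at this step. In each mouse 1 transitional cell held most of the Krt6a of the class, 29 of 37 UMIs in KO mouse 1 and 125 of 211 in KO mouse 2. For Krt79 the median transitional and basal IFE cell had 0 CPM in both mice. The 75th percentile was 86.3 and 89.5 CPM in transitional and 51.9 and 96.3 CPM in basal IFE. The 10 highest transitional cells held 48.1% and 50.9% of the Krt79 UMIs of the class, and the 10 highest differentiated cells 59.3% and 55.5%. Differentiated against basal IFE, Krt16, Krt6a, Krt79 and Krt17 were higher, by 6.29, 6.43, 5.14 and 1.83, where 31.4% of genes were higher, 27.1% lower and 58.5% called. There Krt6a was 4.36 without KO mouse 2 and 7.13 without KO mouse 1, and the description for Krt6b was 3.60 and 8.41, with few cells behind both genes. From transitional to differentiated IFE, 18.6% of genes were higher, 13.7% lower and 32.3% called. There Krt16 rose by 1.55 ± 0.30 (adjusted p = 0.00065), Krt6a by 2.23 ± 0.69 (adjusted p = 0.018, 1.75 without KO mouse 2) and Krt79 by 1.12 ± 0.39 (adjusted p = 0.038), whereas Krt17 fell by 0.68 ± 0.23 (adjusted p = 0.030). From differentiated to terminally differentiated IFE, where 14.6% of genes were higher, 17.7% lower and 32.3% called, Krt16 fell by 4.48 ± 0.53 (adjusted p = 4.2e-06) and Krt79 by 1.70 ± 0.43 (adjusted p = 0.0050), and Krt17 (-0.33 ± 0.24) and Krt6a (-4.54 ± 1.80) did not pass. Set directly against differentiated IFE, the upper follicle-like class had more Krt17 (2.55 ± 0.24) and Krt79 (2.79 ± 0.41) and less Krt16 (-4.14 ± 0.35), where 25.9% of genes were higher, 26.5% lower and 52.4% called, while Krt6a differed by 0.31 ± 0.59 (adjusted p = 0.70). For Krt6a the mice ran in opposite directions, 2.29 with KO mouse 1 alone and -0.47 with KO mouse 2 alone.

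Dividing keratinocytes of the IFE and follicle were set against their resting counterparts. Krt17 alone of the 5 was called, higher by 0.87 ± 0.16 (adjusted p = 0.00038), where 17.6% of genes were higher and 40% were called. The difference lay in the IFE, where dividing basal cells had 1846 and 1844 CPM and resting basal cells 301.5 and 442.3 CPM (log2 2.14 ± 0.24, adjusted p = 2.0e-06, with 14.9% of genes higher and 30.5% called). In the follicle the same contrast was -0.41 ± 0.23 for Krt17 (adjusted p = 0.21), and the test of the difference between IFE and follicle gave 2.54 ± 0.33 (adjusted p = 8.6e-05, 5.61% of genes called). Krt79 was lower in dividing than in resting hair follicle cells (-1.36 ± 0.40, adjusted p = 0.019, with 13.8% of genes lower and 25.1% called), a call that DESeq2 did not make (adjusted p = 0.0515). The resting level was carried by the cluster led by Ncam1 (617.6 and 523.2 CPM), and the other resting clusters, at 50.61 to 84.89 CPM, overlapped the dividing clusters, at 42.82 to 92.78 CPM. Krt6a was called in dividing IFE (3.42 ± 1.13, adjusted p = 0.030) but was -0.18 without KO mouse 2, whose dividing basal class has 1 cell with 170 of its Krt6a UMIs. Of the dividing basal IFE cells 8.79% were called doublets, against 0.135% of basal IFE cells, and removing them left the Krt17 contrast in the IFE at 2.17 (adjusted p = 2.8e-06).

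The Krt17 differences against basal IFE changed with the cells counted in basal IFE and in the other classes. With a mitochondrial limit of 5%, basal IFE was 1 cluster of 779 cells that took in 219 cells of the unnamed cluster led by Pltp and 122 of that led by Ccl27a, and Krt17 in basal IFE was 1952 and 2105 CPM. With a clustering resolution of 1.2, or with the 5 keratins among the variable genes, a cluster led by Pltp took the basal IFE name, at a resolution of 1.2 together with a cluster of 786 cells led by Pou3f1 and Ccl27a, and Krt17 in basal IFE was 1417 and 1493 CPM or 1151 and 1278 CPM. The upper follicle-like class took in a cluster led by Fst, of 466 cells with the 5% limit and 834 cells at a resolution of 1.2. With the 5% limit the hair follicle class was 1 cluster of 598 cells led by Shh. No transitional class formed there, and differentiated IFE took in 215 cells named transitional above. Which of these changes moved the contrasts was not tested. Under these 3 settings the follicle had Krt17 higher than basal IFE by 0.89, 1.15 and 1.71 on the log2 scale, each still called. The suprabasal contrast was -0.24, -0.16 and 0.083, and the dividing contrast -0.14, -0.025 and 0.090, none of them called. The upper follicle-like class remained higher than the other follicle cells for Krt17 in each of the 11 settings that kept both mice, between 1.28 and 1.91.

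**Figure D5:**
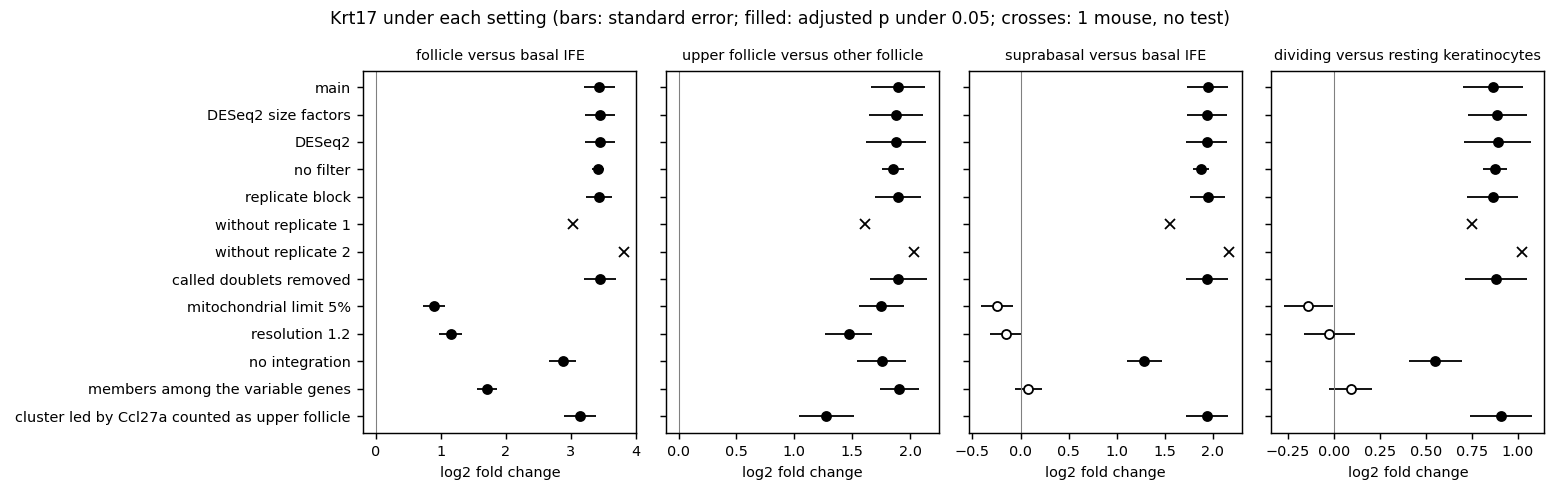
Log2 fold change of Krt17 in 4 comparisons (panels) under each setting (rows), with standard errors as bars; filled points have an adjusted p under 0.05, and crosses are values from 1 mouse with no test. The upper follicle contrast stayed between 1.28 and 1.91 in the settings with both mice, while the suprabasal and dividing contrasts were near 0 with a 5% mitochondrial limit, a resolution of 1.2 or the 5 keratins among the variable genes.

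Other genes tied to these keratins are described by lists of other epithelial keratins, keratinocyte activation genes, AP-1 and immediate early genes, Nrf2 targets, and keratin regulators and partners. Most of their genes could take part in clustering and some name the classes, so the counts are a description, to be read beside the shares of all genes higher and lower. Those shares were 24% and 22.1% in upper against other follicle, 21.5% and 21.6% in suprabasal against basal IFE, 25.3% and 22.8% in follicle against basal IFE and 17.6% and 22.3% in dividing against resting cells. In the upper follicle-like class against the other follicle, 14 of 19 other keratins tested were higher and 2 lower, with a list median of 2.10 against -0.01 for all genes. Among them were Krt75, a companion layer keratin (6.59), Krt77, a suprabasal keratin of the IFE and sweat duct (5.18), and Krt19, a keratin of follicle progenitors (5.03). Of 17 regulators and partners 13 were higher and 3 lower, among them the plakoglobin gene Jup (2.70), the desmoplakin gene Dsp (1.73), Sfn, which encodes 14-3-3 sigma (2.09), and Gata6, a transcription factor of the upper follicle (2.32), while the Wnt effector Lef1 was lower (-1.43). Of 16 activation genes 6 were higher and 1 lower, led by the cornified envelope gene Sprr1a (7.16), the EGF receptor ligand Areg (5.83) and the interleukin 1 receptor antagonist Il1rn (4.26). Of 15 AP-1 and immediate early genes 5 were higher and 0 lower, and of 9 Nrf2 targets 3 were higher and 5 lower.

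In the suprabasal IFE 11 of 19 other keratins were higher and 3 lower, among them the differentiation keratins Krt1 (4.69) and Krt10 (3.88) and the basal keratin Krt5 (-2.04). Activation genes were higher in 8 of 16 cases and lower in 1, with Sprr1b at 5.31 and Sprr1a at 4.78, and their list median was 2.81 against -0.02 for all genes. Of the Nrf2 targets 5 of 9 were higher, among them the haem oxygenase gene Hmox1 (2.74), of the regulators 9 of 17 were higher and 4 lower, and of the AP-1 genes 1 of 15 was higher and 5 lower. In CPM scaled for the fit, Hmox1 was at 157.5 and 170.3 in terminally differentiated IFE and 6.469 and 7.893 in differentiated IFE. It was at 1.916 and 3.103 in transitional and 1.906 and 2.34 in basal IFE. Sprr1b was at 188.4 and 81.02 in differentiated IFE and 0.5749 and 1.833 in transitional IFE. In the follicle against basal IFE 12 of 19 other keratins were higher and 3 lower, whereas 12 of 15 AP-1 genes were lower and 1 higher. There activation genes were higher in 1 and lower in 4 of 16 cases, Nrf2 targets higher in 4 and lower in 1 of 9, and regulators higher in 4 and lower in 11 of 17. In dividing against resting cells the 5 lists had 0 to 2 genes higher each, and 11 of 17 regulators, 6 of 15 AP-1 genes, 3 of 16 activation genes, 3 of 19 keratins and 1 of 9 Nrf2 targets were lower.

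The genes whose levels followed each keratin most closely across the 24 clusters were ranked by Pearson's r of log2(CPM + 10) over 5863 genes. The clusters share libraries and depth, so r is a description. For Krt17 they were Irx2 (0.844), Lrig3, Fxyd3, Epcam and Sox9 (0.805), and for Krt79 Fam84a (0.940), Sdr16c6, Zfp750, Grhl1 and Rarres1 (0.863). For Krt6a they were Bbox1 (0.941), Pinlyp, Smim5, Krt77 and Tmem45a (0.885), of which Bbox1 and Pinlyp lead the upper follicle-like cluster. For Krt16 they were Tmprss4 (0.966), Gadl1, Oas1f, Il34 and Krt1 (0.951), and for Krt6b, which itself was under 50 CPM in each cluster of KO mouse 1, Sprr1b (0.973), Serpinb3a, Tgm3, Gjb5 and Chit1 (0.960). Among the 5 keratins themselves r was 0.718 between Krt6a and Krt16, 0.741 between Krt6b and Krt16, 0.695 between Krt6a and Krt79, 0.473 between Krt17 and Krt6a and 0.265 between Krt17 and Krt79.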

How the data were processed

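The authors deposited raw UMI counts per gene and cell barcode for each mouse. The submitters' processing notes name Cell Ranger 3.0.2 and mm10. The labels and the study's methods name different versions of the 3′ chemistry. The filter on barcodes followed the study's methods (900 to 7700 genes, less than 10% of UMIs mitochondrial). Libraries were integrated with Seurat 5.3.0 (2000 variable genes, less the 5 keratins, 30 dimensions, resolution 0.8). Clusters were named from marker lists, with score limits set after the clusters were seen. Doublets were called by Scrublet in scanpy 1.11.5 with a score limit of 0.25 for both mice, since the automatic limit called 2 cells in KO mouse 1. They were 1.89% and 3.03% of the cells kept and stayed in the sums, and an alternative removed them. Sub-clusters were made with leidenalg 0.10.2.

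UMI counts were summed per mouse and class, for classes with at least 20 cells in each mouse, and tested with edgeR 4.0.16 in R 4.3.3 (TMM, filterByExpr, quasi-likelihood, 10 residual degrees of freedom, threshold 0.05). The fit was tested on simulated data. DESeq2 1.42.0 and other settings were alternatives. Sums of 1 animal are paired across classes because they come from the same mouse. The correlation of the mouse difference between classes ran from 0.003 to 0.494 (median 0.183, 45 pairs of classes). Transcripts were compared with Biopython 1.88. Intervals and the limits that a count of 0 allows (3 counts) cover counting error only. The named genes were the 5 keratins, the 5 genes most like each across clusters and examples from the lists, and the members and lists were chosen with earlier results of these data known.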

Additional observations from a re-analysis of the deposited data

Results flagged for a closer look

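The dividing against resting difference differed between IFE and follicle for Krt17 and for Krt79 when the difference itself was tested (quasi-likelihood in edgeR, p-values adjusted by Benjamini-Hochberg). For Krt17 the IFE minus follicle difference was 2.54 on the log2 scale (adjusted p = 8.6e-05). It was 0.045 with a 5% mitochondrial limit, 0.47 at a resolution of 1.2 and 0.86 with the keratins among the variable genes, none of them called. It was called with DESeq2, with the animal as a block, with doublets removed and without integration. For Krt79 the difference was 2.26 (adjusted p = 0.027), and it was not called with doublets removed (1.43, adjusted p = 0.23), a 5% mitochondrial limit (0.63), a resolution of 1.2 (2.06) or the keratins among the variable genes (1.79). Its follicle side rested on the resting cluster led by Ncam1 (617.6 and 523.2 CPM), while the other resting clusters (50.61 to 84.89 CPM) overlapped the dividing ones (42.82 to 92.78 CPM). For Krt6a the difference was 4.24 (adjusted p = 0.15) and passed with the animal as a block (4.20, adjusted p = 0.026), but was -0.73 without KO mouse 2.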

How the results depend on the processing

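Of 370 alternative values, 319 kept their direction and their side of the threshold or their size. The 370 include 50 values that leave out 1 mouse. For levels, 1 mouse always lies within 1 SD of the mean of 2 mice, so that outcome was fixed in advance. For fold changes the limit was likewise the SD of the 2 single-mouse values, so these 50 say little about robustness. For Krt17 the suprabasal contrast turned to -0.24 and the dividing contrast to -0.14 with a 5% mitochondrial limit, and to -0.16 and -0.025 at a resolution of 1.2. With the 5 keratins among the variable genes they were 0.083 and 0.090 and were not called. The cells named basal IFE and those of other classes changed under these settings, as given above. The number of members called in the dividing comparison was 0 under each of the 3, where 1222, 4136 and 4122 genes were called in the order given, and 3 without the filter on low counts, where 5123 were. Krt6a in follicle against basal IFE lost its call with a 5% limit (0.93) and a resolution of 1.2 (2.40). Krt16 in that comparison passed without the filter (0.64), with the replicate block (0.65, adjusted p = 0.048), at a resolution of 1.2 (0.61), without integration (0.95) and with the keratins among the variable genes (0.93), and the cause was not tested. The block changed no other call in the 4 main comparisons. Krt6a in suprabasal IFE passed with DESeq2 (4.26) and without the filter (4.10), and Krt6a (1.31) and Krt79 (-0.22) in dividing cells passed without it. With the 5% limit the genes called were 1929, 3754, 2110 and 1222 in the 4 comparisons in the order above, against 6056, 5803, 5433 and 5037.

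Levels moved by more than 1 SD for Krt17 in the upper follicle-like class (6005 CPM at a resolution of 1.2, and 5687 with the Ccl27a cluster counted in, a setting chosen after seeing the data), Krt79 there (6930 and 5670), Krt6a there (70.62 and 60.61, 88.47 with the 5% limit and 100.5 without integration) and Krt16 in differentiated IFE (443.9 with the 5% limit). Without thinning the mean detected shares were 99.25% for Krt17, 92.05% for Krt79 and 21.45% for Krt6a in the upper follicle-like class and 5.22% for Krt6b and 51.25% for Krt16 in differentiated IFE. With 2000 UMIs per cell Krt17 was 95.35% and Krt16 21.65%.

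With either mouse alone, which leaves no test, follicle against basal IFE was 3.03 to 3.82 for Krt17, 4.48 to 5.51 for Krt79, 3.22 to 4.29 for Krt6a, 0.60 to 0.88 for Krt16 and -1.70 to 1.17 for Krt6b. Upper against other follicle was 1.61 to 2.03, 5.63 to 5.96, 4.74 to 6.87, 2.49 to 3.22 and -5.03 to -0.61 in the same order. Suprabasal against basal IFE was 1.55 to 2.17, 3.77 to 4.29, 1.83 to 3.42, 3.68 to 5.23 and 3.43 to 4.81. Dividing against resting was 0.75 to 1.02, -0.60 to 0.17, 0.18 to 1.44, -0.17 to 0.51 and -0.37 to -0.20. Krt6a and Krt6b rest on few cells, and 2 mice limit every p-value.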

Other observations

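Barcodes left out for 10% or more mitochondrial UMIs, 2777 in KO mouse 1 and 3315 in KO mouse 2, had Krt16 at 100.9 and 88.75 CPM, against 42.22 and 41.43 CPM in the cells kept. Their Krt6b was at 14.21 and 5.492 CPM, against 0.6839 and 4.562 CPM, and their Krt17 was lower than in the cells kept, at 778.8 and 939.4 CPM against 2218 and 1868 CPM. KO mouse 1 had 146 Krt6b UMIs in these barcodes and 65 in the cells kept, while KO mouse 2 had 68 and 679.

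With a 5% mitochondrial limit, a cluster of 48 cells stood apart with Krt17 at 17210 and 14560 CPM, Krt6a at 719.9 and 722.9 CPM and Krt79 at 1574 and 371 CPM. Of these cells 36 belonged to the upper follicle-like class, 10 to dividing hair follicle and 2 to hair follicle in the clustering used above. Its levels are near those of the upper follicle-like sub-cluster led by Wfdc18.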
